A study of Mus musculus with 12 samples.

Results

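The comparison described here is between tbGFP-positive and tbGFP-negative mouse embryonic stem cells after 24 h of sorbitol. The members were chosen by the submitters' titles, which put 2 libraries in each of these groups, 4 of the 12 libraries of the study. All libraries came from E14, an established mouse embryonic stem cell line of genotype 2C::3xtbGFP, a fluorescent reporter line for the 2-cell-like state. Cells were expanded in serum and LIF with the inhibitors CHIR99021 and PD0325901 and were then plated without these inhibitors in every group. Sorbitol, a sugar alcohol that raises the osmolarity of the medium, was given for 0, 6 or 24 h before sorting by tbGFP, and total RNA of the sorted cells was sequenced with a stranded kit. The comparison asks how far the RNA of 2-cell-like cells stood apart from that of the other cells after a day of hyperosmotic culture. The sequence that drives the reporter, and whether the line is 1 clone, are not given in the sources used here. Nothing in the labels ties replicates to separate cultures, so p-values measure the spread between these libraries, which may be technical. No group was cultured for the same time without sorbitol, so sorbitol and time in culture cannot be told apart in any contrast with 0 h.

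The 2-cell embryo is the stage at which the mouse zygotic genome is first strongly transcribed, and a small share of cultured embryonic stem cells passes in and out of a state that resembles it. In these 2-cell-like cells the double-homeobox factor Dux switches on a set of genes and retroviral repeats of the 2-cell stage. Many of these genes belong to tandem families of near-identical copies, among them Zscan4, the Eif1a-like genes, Tdpoz, Usp17-like genes and Tcstv. Reads from such copies cannot always be assigned to 1 of them, and the deposited counts do not state how shared reads were handled, so values of single copies are uncertain. In sorted bulk cells, a fraction with fewer cells of a type and cells with less RNA per cell cannot be told apart.

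Promoters of 5 genes at the centre of the comparison are shown first, because at 24 h each passed the test as higher in tbGFP-positive cells and the Dux motif can be looked for in them. They are from RefSeq (GRCm38.p6) and run from 250 bases before to 50 after the annotated start, 5′ to 3′ on the gene's strand. AF067061 and Gm20765 were detected in tbGFP-positive cells and had no count in tbGFP-negative cells at 24 h, Duxf3 is the annotated Dux gene, and Zscan4c and Zscan4d are Zscan4 genes. Capitals mark the motif GATTNAATC, the core of the sequence bound by mouse Dux, which reads the same on both strands and was the only motif searched.
AF067061 promoter, chr13:120262845-120263144, plus strand: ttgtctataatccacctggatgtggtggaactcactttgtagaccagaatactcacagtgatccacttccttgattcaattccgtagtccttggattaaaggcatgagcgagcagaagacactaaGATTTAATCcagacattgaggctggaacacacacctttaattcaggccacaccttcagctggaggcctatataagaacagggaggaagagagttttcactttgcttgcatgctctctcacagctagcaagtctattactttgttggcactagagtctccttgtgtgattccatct
Gm20765 promoter, chr10:104185283-104185582, plus strand: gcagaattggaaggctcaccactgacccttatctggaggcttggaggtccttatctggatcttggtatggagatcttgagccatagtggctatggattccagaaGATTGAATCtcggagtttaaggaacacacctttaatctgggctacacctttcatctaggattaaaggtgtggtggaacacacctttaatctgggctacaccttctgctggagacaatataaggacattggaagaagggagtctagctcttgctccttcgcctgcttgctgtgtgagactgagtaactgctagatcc
Duxf3 promoter, chr10:58233040-58233339, minus strand: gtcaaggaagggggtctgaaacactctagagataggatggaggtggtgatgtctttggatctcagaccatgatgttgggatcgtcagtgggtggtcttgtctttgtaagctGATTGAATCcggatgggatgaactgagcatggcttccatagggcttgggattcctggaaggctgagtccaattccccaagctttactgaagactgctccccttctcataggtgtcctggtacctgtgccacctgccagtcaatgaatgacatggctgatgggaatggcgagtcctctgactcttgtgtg
Zscan4c promoter, chr7:11005495-11005794, plus strand: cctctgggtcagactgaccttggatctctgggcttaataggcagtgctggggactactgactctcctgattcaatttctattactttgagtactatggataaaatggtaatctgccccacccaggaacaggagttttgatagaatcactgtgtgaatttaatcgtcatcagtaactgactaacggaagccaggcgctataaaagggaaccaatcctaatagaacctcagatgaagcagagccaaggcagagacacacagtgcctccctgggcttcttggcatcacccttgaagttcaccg
Zscan4d promoter, chr7:11166099-11166398, minus strand: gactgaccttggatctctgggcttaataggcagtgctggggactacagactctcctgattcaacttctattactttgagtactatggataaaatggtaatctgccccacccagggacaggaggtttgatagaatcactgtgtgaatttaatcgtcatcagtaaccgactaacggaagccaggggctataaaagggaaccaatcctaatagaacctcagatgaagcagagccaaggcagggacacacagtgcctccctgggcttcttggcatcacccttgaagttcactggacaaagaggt
The motif was found once in each of the AF067061, Gm20765 and Duxf3 windows and starts 125, 146 and 139 bases before the RefSeq start. The Duxf3 window lies wholly upstream of the gene model used for the counts, whose 5′ end is at 58232675. The motif was not found in the Zscan4c and Zscan4d windows, which were identical at 281 of 289 aligned bases (97.2%). Among the genes higher in tbGFP-positive cells at 24 h, 414 had a promoter in the table and 13 of these held the motif (3.14%). None of the 16 lower genes with a promoter held it. Genes without a promoter in the table could not be searched, so these shares do not cover all genes. Counted by gene symbol, the motif was found for 36 of the 10659 tested symbols with a promoter there (0.34%). It was found for 83 of the 27025 symbols with a promoter there, tested or not (0.31%). The other 10 higher genes with the motif were Gm12790, Gm12724, Gm33248, Gm4340, Pemt, Gm21761, Gm35974 and the chromosome 4 neighbours Gm13043, Gm13040 and Gm13057. Gm21761 was at 1948 and 1684 against 29.1 and 26 CPM in tbGFP-positive against tbGFP-negative libraries. Some of the genes with the motif are neighbours, on chromosome 4 and, for Gm20765 and Gm4340, on chromosome 10. Their matches may not be independent, so nothing is read from the share of higher genes with the motif. A match describes letters in the window and does not show a binding site.

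The 12 libraries held 2306870 to 7900178 counts, and the 4 libraries at 24 h held 6415064 to 7900178. Levels are given as CPM, counts relative to library size, scaled with edgeR's TMM factors and are compared between libraries, not between genes. The authors counted per transcript, and how reads that overlap several transcripts were counted is not given, so levels of genes with several annotated transcripts may be incomplete. In the libraries at 24 h, 3 counts are 0.38 to 0.468 CPM by library totals, before the TMM factors. With these factors, 4 counts were 0.414 CPM in replicate 1 of the tbGFP-negative cells. In replicate 1 of the tbGFP-positive cells 2 counts were 0.355 CPM, so the floor differs between fractions. Group means are given ± SD with n = 2 libraries, log2 fold changes are tbGFP-positive against tbGFP-negative ± standard error, and adjusted p-values come from the quasi-likelihood test of edgeR, adjusted by Benjamini-Hochberg over all 19384 tested genes and called below 0.05. The tbGFP-positive libraries at 6 h held 17445 and 17545 genes with counts, fewer than the 25205 to 26069 at 24 h, and they enter the shared estimate of spread. The genes Zscan4a to Zscan4f took 2.50% and 2.93% of counts in tbGFP-positive cells and 0.088% and 0.085% in tbGFP-negative cells at 24 h, so the sort labels and the 2-cell markers went together. Of the stem cell markers, Pou5f1 (Oct4) was at 998 and 602 CPM in the tbGFP-positive and 678 and 679 CPM in the tbGFP-negative libraries. Sox2 was at 602 and 515 against 699 and 724 CPM and Nanog at 20.1 and 25.8 against 24.2 and 20.9 CPM, so all of these were detected in both fractions and none passed the test (adjusted p = 0.956, 0.476 and 1).

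The difference between the fractions ran almost wholly 1 way. At 24 h, 1037 genes were higher in tbGFP-positive cells (5.35% of the 19384 tested) and 22 were lower (0.113%), together 5.46%. The higher genes had a median log2 fold change of 5.14, or 4.85 with the 122 genes that had no count in tbGFP-negative cells set at their bound, and 888 of them were beyond 4-fold. The lower genes had a median of -0.82 and none was beyond 4-fold. The median over all tested genes was -0.05. The split depends on the scaling: with library totals alone the median of all genes moved to -0.48, and 884 genes were higher and 424 lower (67.6% of calls higher, against 97.9%). The count also depends on the other libraries in the fit: without both tbGFP-positive libraries at 6 h, 1608 genes were higher and 138 lower, and with only the 4 libraries at 24 h, 1938 and 421. Without replicate 1 or 2 of the tbGFP-positive cells at 6 h there were 1711 and 1704 calls in all, and without replicate 2 of the tbGFP-negative cells at 24 h 704.

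**Figure D1:**
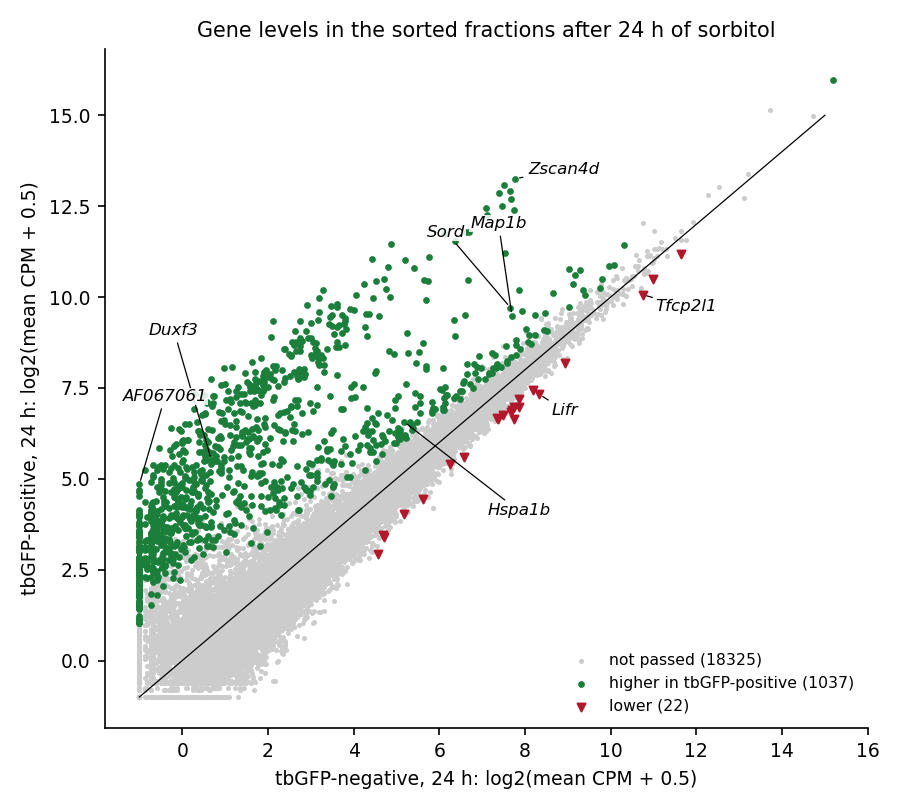
Mean level of each tested gene after 24 h of sorbitol in tbGFP-negative (x axis) and tbGFP-positive cells (y axis), both as log2(CPM + 0.5), with the line of equal levels. Green points are the 1037 genes higher in tbGFP-positive cells, red triangles the 22 lower genes and grey points the 18325 genes that did not pass the test; the higher genes spread far above the line and the lower genes lie close under it.

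Dux itself was 1 of the higher genes. Duxf3 (ENSMUSG00000075046.7, chromosome 10, 58229979 to 58232675, minus strand, GRCm38) was at 48.3 and 42.1 CPM in the tbGFP-positive and 1.45 and 0.761 CPM in the tbGFP-negative libraries, a log2 fold change of 5.30 ± 0.41 (adjusted p = 1.84e-07). Both tbGFP-positive libraries stood far above both tbGFP-negative ones, in which it was detected with 20 counts in all.

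All 9 tested genes of the Zscan4 family, which encode SCAN-domain zinc finger proteins linked to telomere maintenance, were higher in tbGFP-positive cells, with a median log2 fold change of 5.48 beside -0.05 over all genes. Zscan4d (ENSMUSG00000090714.10, chromosome 7, 11161374 to 11166159, minus strand) was at 9134 and 10450 CPM in the tbGFP-positive and 233 and 205 CPM in the tbGFP-negative libraries. Its log2 fold change was 5.48 ± 0.21 (adjusted p = 1.95e-10). Zscan4c (ENSMUSG00000054272.6, chromosome 7, 11005745 to 11010547, plus strand) was at 7661 and 7767 against 207 and 197 CPM and had a log2 fold change of 5.25 ± 0.32 (adjusted p = 1.53e-08), and no library of 1 fraction reached the level of the other. Zscan4a was at 8460 and 8830 against 185 and 181 CPM, and Zscan4f at 3379 and 3721 against 95.2 and 109.6 CPM. Zscan4-ps1, Zscan4-ps2 and Zscan4-ps3 had log2 fold changes of 5.68, 5.05 and 5.48, close to the 5.12 to 5.61 of the others. Their names mark pseudogenes, but the annotation used here types them as protein coding and types Zscan4a as an unprocessed pseudogene. Zscan4b and Zscan4e were scarce. Zscan4b was at 8.88 and 8.1 against 0.414 and 0 CPM, and Zscan4e had 3 counts in tbGFP-negative cells, which gives a ratio of 55.6 (95% counting interval 18.6 to 273).

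The Eif1a-like genes, named for their resemblance to the translation initiation factor 1A, had 5 of 6 tested members higher and a median log2 fold change of 5.08. Gm5662 was at 6726 and 6457 CPM in the tbGFP-positive and 199 and 207 CPM in the tbGFP-negative libraries, a log2 fold change of 5.02 ± 0.21 (adjusted p = 4.62e-10). Gm8300 was at 5729 and 5394 against 144 and 125 CPM and had a log2 fold change of 5.37 ± 0.18 (adjusted p = 5.83e-11). Gm2016 was at 5526 and 4243 against 153 and 125 CPM and Gm2022 at 1421 and 1436 against 51.5 and 47.2 CPM, so each of these copies stood apart by the same order. Gm10264 had 2 counts in tbGFP-negative cells, which gives a ratio of 45.2 (95% counting interval 12 to 381). Gm4850, the member that did not pass, had 0.355 and 0.294 CPM in tbGFP-positive and no count in tbGFP-negative libraries.

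All 4 tested Tdpoz genes, of 5 listed, which encode proteins with TRAF and BTB/POZ domains, were higher, with a median of 6.07. Tdpoz3 was at 2461 and 1660 CPM in the tbGFP-positive and 38.7 and 33.5 CPM in the tbGFP-negative libraries, a log2 fold change of 5.83 ± 0.48 (adjusted p = 6.59e-06). Tdpoz4 was at 1500 and 1133 against 18.4 and 18.6 CPM, a log2 fold change of 6.15 ± 0.30. Tdpoz2 and Tdpoz5 had log2 fold changes of 6.00 ± 0.52 and 7.12 ± 0.82. The 6 tested Usp17-like genes, which encode deubiquitinases, were all higher, with a median of 5.25, or 4.98 with Usp17le-ps, which had no count in tbGFP-negative cells, at its bound. Usp17la was at 624 and 529 against 19.6 and 17.8 CPM, and Usp17lc at 414 and 354 against 9 and 7.11 CPM. Both Tcstv genes, known for transcripts of the 2-cell stage, were higher: Tcstv3 was at 62.8 and 57.6 against 2.27 and 1.65 CPM (adjusted p = 1e-06), and Tcstv1 at 7.81 and 8.54 against 0 and 0.507 CPM (adjusted p = 0.00684).

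A smaller share of the tested Obox homeobox genes and PRAME-like genes passed than in the families above. All 32 tested Obox members had a positive log2 fold change, of 2.34 or more. They summed to 18.6 and 18.9 CPM in the tbGFP-negative libraries at 24 h. A member can pass the count minimum through the tbGFP-positive libraries alone, so nothing is read from the signs or shares of these lists. The PRAME-like genes ran from -0.64 to 5.83, with 8 of 9 positive. Of 32 tested Obox genes and pseudogenes 23 were higher, and the median was 5.49, or 4.60 with the 9 members that had no count in tbGFP-negative cells at their bound; another 23 of the 55 listed were below the count minimum. Copies annotated as Obox4 pseudogenes were among them, with Obox4-ps33 at 132 and 153 against 2.17 and 0.888 CPM. Obox6, an intact member, was at 66.2 and 64.6 against 4.34 and 4.95 CPM, a log2 fold change of 3.81 ± 0.32 (adjusted p = 4.56e-07). Of 9 tested PRAME-like genes, of 14 listed, 4 were higher, with a median of 1.92 over the list. Pramef25 was at 1598 and 1312 against 27.6 and 23.6 CPM and Pramel7 at 170.4 and 201 against 14.4 and 15.3 CPM. Pramef12 was at 175 and 187 against 168 and 144 CPM and did not pass (adjusted p = 0.912).

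Genes listed as single-copy genes of the 2-cell program separated in the same way: 13 of 14 tested members, of 15 listed, were higher, with a median of 5.24. The list name is not strict. AA623943 is annotated as an unprocessed pseudogene, and AF067061 lies between Tcstv1 and Tcstv3 on chromosome 13. Arg2, mitochondrial arginase, was at 546 and 422 CPM in the tbGFP-positive and 21.6 and 16.9 CPM in the tbGFP-negative libraries, a log2 fold change of 4.65 ± 0.28 (adjusted p = 1.28e-08). Zfp352, a zinc finger gene used as a 2-cell marker, was at 68.5 and 58.9 against 0.621 and 1.4 CPM (5.98 ± 0.53), and the pseudogene Zfp353-ps, which is not on the list, at 217 and 209 against 0.414 and 1.78 CPM. Nelfa, a subunit of the negative elongation factor of RNA polymerase II, was at 6555 and 4298 CPM in the tbGFP-positive and 228 and 203 CPM in the tbGFP-negative libraries, a log2 fold change of 4.66 ± 0.22 (adjusted p = 7.5e-10). Ddit4l, an inhibitor of mTOR signalling, was at 367 and 323 against 29.4 and 31.2 CPM, the smallest gap of the higher members (3.51 ± 0.23). The list also held Dcc, a netrin receptor gene, at 246 and 232 against 2.48 and 2.03 CPM, and Rdh1, a retinol dehydrogenase gene, at 264 and 206 against 4.55 and 9.01 CPM. Zfp750, an epidermal zinc finger factor, did not pass and was at 13.8 and 11.3 against 15.2 and 14.5 CPM.

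**Figure D2:**
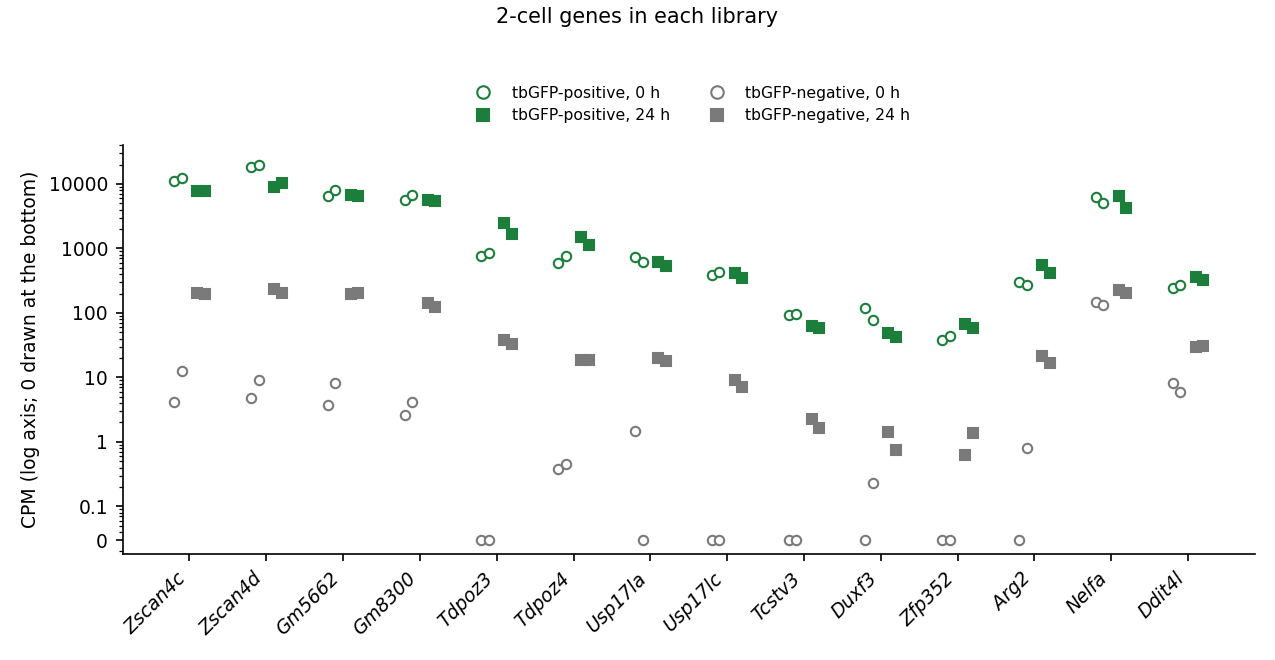
CPM (log axis, 0 drawn at the bottom) of selected genes of the 2-cell program in each of the 2 libraries of each fraction at 0 h (open circles) and 24 h (filled squares), green for tbGFP-positive and grey for tbGFP-negative cells. The tbGFP-positive libraries lie above the tbGFP-negative ones for every gene drawn, and the grey squares of 24 h lie above the grey circles of 0 h; Zscan4d in tbGFP-negative cells goes from 4.85 and 9.09 CPM to 233 and 205 CPM.

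Of the protein coding genes with at least 5 CPM in 1 group and no overlap between the libraries, the 10 with the largest fitted increases had no count in either tbGFP-negative library. Their fitted values depend on the prior count, so this order is not one of measured folds, which are lower bounds against 3 counts over the group. AF067061 was at 25.9 and 30.8 CPM in tbGFP-positive cells, at least 167-fold higher. Gm20765 was at 33 and 18 CPM, at least 145-fold higher, and Slc9a9, an endosomal sodium/proton exchanger, at least 131-fold, at 22.2 and 22.7 CPM. Gm6902, AC125149.4, the vomeronasal receptor gene Vmn2r52, AC133103.4, the keratin-associated gene Krtap4-13, Gm5890 and A530032D15Rik had bounds of 48.5-fold to 95.6-fold. AC125149.5, named after its values were seen, had counts in both fractions, at 104 and 63.5 against 0.414 and 0.254 CPM, a log2 fold change of 7.85 ± 0.55 that lies above all of these bounds. Genes of olfactory and vomeronasal receptors, which are normally read in sensory neurons, gave 14 higher and no lower gene of 75 tested (18.7%, beside 5.35% of all genes). The 75 are those of 1737 listed that passed the count minimum, which a gene can pass through the tbGFP-positive libraries alone, so nothing is read from this share. Olfr374 was at 152 and 133 against 3 and 4.69 CPM.

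After 24 h of sorbitol, most genes of the 2-cell program had counts in tbGFP-negative cells too, although some had few, such as 4 for Zscan4b and 5 for Tdpoz5, and AF067061 and Usp17le-ps had none. For the 40 higher genes of the Zscan4, Dux, Eif1a-like, Tdpoz, Usp17-like, Tcstv and single-copy lists, the tbGFP-negative mean was a median of 2.43% of the tbGFP-positive mean, with quartiles of 1.71% and 3.08% and a range of 0% to 8.79%. At 0 h the same 40 genes had a median of 0.0157%. Zscan4d stood at 2.23% and Zscan4c at 2.62% at 24 h, Gm5662 at 3.08%, Tdpoz3 at 1.75%, Usp17la at 3.25%, Tcstv3 at 3.26%, Duxf3 at 2.44% and Arg2 at 3.98%. The genes just named differed widely in their level in tbGFP-positive cells and had shares of 1.75% to 3.98%. Others of the 40 lay further from the median, with AF067061 at 0%, Tdpoz5 at 0.623%, Dcc at 0.946% and Ddit4l at 8.79%. The set holds only genes called higher at 24 h, which limits how large a share can be, so the shares are a description of these libraries.

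Over all 1037 higher genes the share had a median of 2.75% at 24 h and 0.192% at 0 h. At 24 h, 455 genes (43.9%) lay between 1% and 5% and 221 lay under 1%. At 0 h 62.1% lay under 1% and 116 genes between 1% and 5%. There were 122 genes without a count in tbGFP-negative cells at 24 h and 410 at 0 h, and 307 of the latter had counts at 24 h. Depth differed between the times, with 2306870 counts in the shallower and 7344399 in the deeper tbGFP-negative library at 0 h. Whether a few tbGFP-negative cells or all of them carried these RNAs was not tested, as the libraries hold pooled cells.

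**Figure D3:**
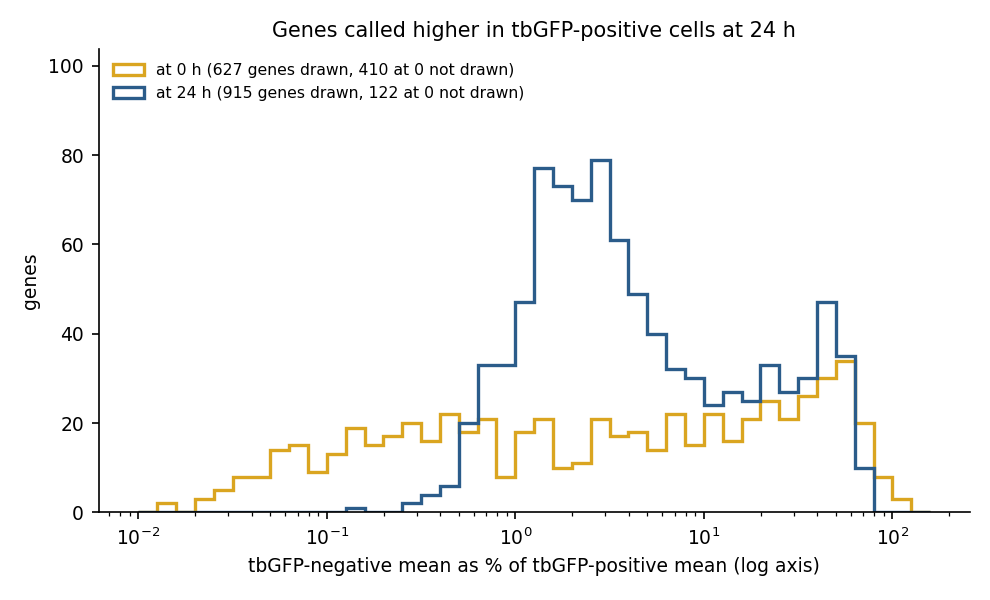
Number of genes (y axis) by the tbGFP-negative mean as a percentage of the tbGFP-positive mean (x axis, log scale), for the 1037 genes higher in tbGFP-positive cells at 24 h. The blue line is 24 h and the yellow line 0 h, and genes with no count in tbGFP-negative cells (122 at 24 h and 410 at 0 h) are not drawn; at 24 h 455 genes lie between 1% and 5%, at 0 h 116 do.

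Most genes that marked tbGFP-positive cells at 24 h also marked them without sorbitol. At 0 h 1291 genes were higher (6.66% of those tested) and 87 lower (0.449%). Of the 1037 genes higher at 24 h, 938 were also higher at 0 h, which is 90.5% of the list at 24 h and 72.7% of that at 0 h. For the 99 genes that passed at 24 h alone, none had a gap that was larger at 24 h by the test of the difference itself.

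The test of the change in the gap, the interaction of fraction and time, found 184 genes with a smaller gap at 24 h (0.949% of those tested) and 4 with a larger one (0.0206%), together 0.97%. Of the 938 genes higher at both times, 177 (18.9%) had a smaller gap and 1 a larger one. Without replicate 2 of the tbGFP-negative cells at 0 h, the deeper library, 77 genes had a smaller gap. The Zscan4 family contributed 7 of its 9 tested members, with a median log2 fold change of 10.51 at 0 h and 5.48 at 24 h. Zscan4d was at 18130 and 19790 against 4.85 and 9.09 CPM at 0 h, and its gap changed by -5.81 ± 0.27 log2 units from 0 h to 24 h (adjusted p = 1.73e-08). On the log scale most of this change was in tbGFP-negative cells, where its mean went from 6.97 to 219 CPM, while in tbGFP-positive cells it went from 18960 to 9791 CPM. Gm8300 was at 5552 and 6716 against 2.61 and 4.2 CPM at 0 h, and its gap changed by -5.32 ± 0.25 (adjusted p = 1.73e-08).

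The same held for 4 of 6 Eif1a-like, 5 of 6 Usp17-like, 2 of 4 Tdpoz, 1 of 2 Tcstv and 7 of 14 single-copy genes. It held for 3 of 32 tested Obox and 1 of 9 PRAME-like genes, and Duxf3 did not pass (-3.71 ± 0.87, adjusted p = 0.067). Nelfa, which tbGFP-negative cells already held at 0 h, had gaps of 5.34 ± 0.22 at 0 h and 4.66 ± 0.22 at 24 h, a change of -0.69 ± 0.26 that did not pass (adjusted p = 0.656). Where tbGFP-negative cells had no count at 0 h, as for Tdpoz3, Usp17lc and Tcstv3, the fitted gap at 0 h depends on the prior count, and the list medians at 0 h with such genes at their bounds were 8.58 for Tdpoz, 10.08 for Usp17-like, 7.05 for Tcstv and 7.81 for single-copy genes.

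**Figure D4:**
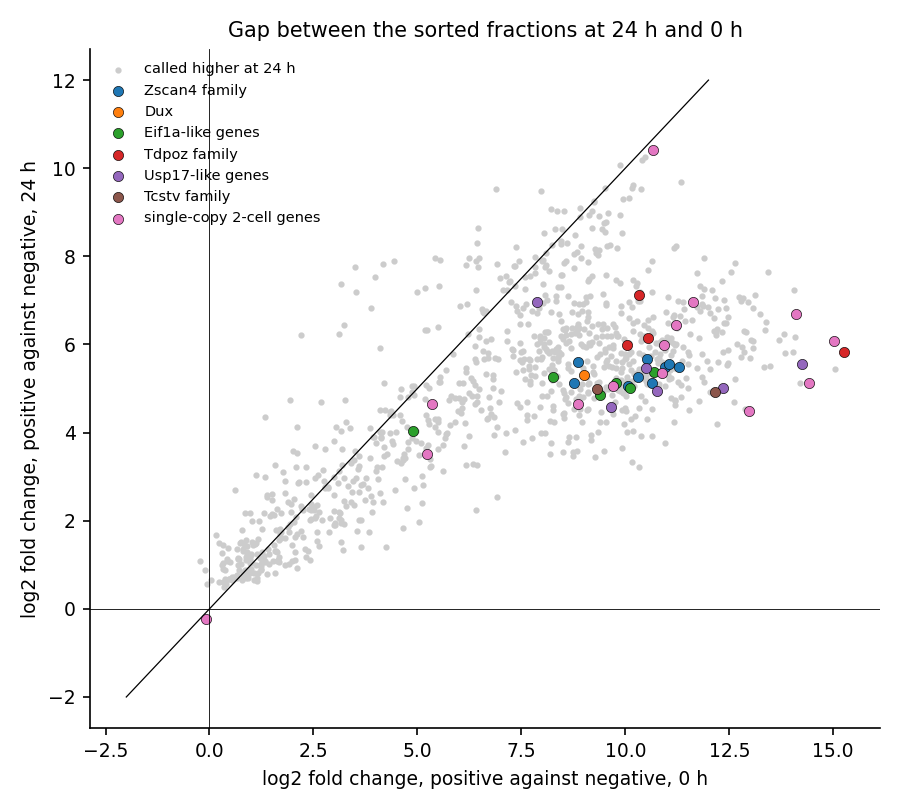
Log2 fold change between the fractions (positive minus negative) at 0 h (x axis) and 24 h (y axis) for the genes higher at 24 h (grey) and the tested members of the 2-cell families (colours), with the line of equal gaps. Most family members lie below the line, with the Zscan4 family at a median of 10.51 at 0 h and 5.48 at 24 h; for genes without counts in tbGFP-negative cells the plotted value depends on the prior count.

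A gap that was larger at 24 h was seen for 4 genes. Map1b, a microtubule-associated protein gene, was at 723 and 712 CPM in the tbGFP-positive and 195 and 219 CPM in the tbGFP-negative libraries at 24 h (1.79 ± 0.14, adjusted p = 1.61e-07). At 0 h it was at 1097 and 1152 against 638 and 674 CPM (0.78 ± 0.14), so its level at 24 h was below that at 0 h in all libraries, and the change of the gap was 1.02 ± 0.19 (adjusted p = 0.0125). Rian, an imprinted noncoding RNA, was lower in tbGFP-positive cells at 0 h, at 47.3 and 59.8 against 108 and 129 CPM (adjusted p = 0.000961), and was at 166 and 171 against 159 and 142 CPM at 24 h (adjusted p = 0.954). Leaving out either tbGFP-negative library at 0 h left 0 genes with a larger gap, and leaving out 1 library at 24 h left 0 or 1. Soat2, a cholesterol-esterifying enzyme gene, and Gm44645 were scarce: Soat2 had means of 0.0958 against 5.03 CPM at 0 h and 1.99 against 0.691 CPM at 24 h, and Gm44645 had no count against 2.95 CPM at 0 h and 2.8 against 0.103 CPM at 24 h.

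Besides the genes that tbGFP-negative cells hardly expressed, a group of well expressed protein coding genes was higher in tbGFP-positive cells by smaller amounts. Of the 519 protein coding higher genes, 92 had a mean of at least 50 CPM in tbGFP-negative cells at 24 h, a limit chosen after the values were seen. Their median log2 fold change was 1.11, 75 of them were also higher at 0 h, and 17 had a smaller gap at 24 h. The group holds several of the 2-cell genes above, and the genes named next were picked from the rest after their values were seen. Scamp1, a secretory carrier membrane protein gene, was at 704 and 611 CPM in the tbGFP-positive and 86.5 and 76 CPM in the tbGFP-negative libraries (3.02 ± 0.20, adjusted p = 3.09e-08). Aqr, an RNA helicase of the spliceosome, was at 514 and 465 against 82.6 and 80.7 CPM (2.58 ± 0.18), and Snw1, a splicing factor, at 709 and 754 against 277 and 323 CPM (1.28 ± 0.15). Igfbp3, an insulin-like growth factor binding protein gene, was at 305 and 246 against 52 and 50.5 CPM (2.42 ± 0.20). These genes had gaps of 5.12, 2.44, 2.04 and 3.40 at 0 h, and each passed the test at 0 h as well. Csnk2a1, a catalytic subunit of casein kinase 2, had a log2 fold change of 1.45 ± 0.15, Prps1, which makes phosphoribosyl pyrophosphate, 1.24 ± 0.13, and Cand1, an exchange factor of cullin ligases, 1.11 ± 0.14. Zfp51 was at 756 and 695 against 111 and 82.3 CPM (2.91 ± 0.26). Zfp560, another zinc finger gene, lay below that limit in tbGFP-negative cells, at 749 and 666 against 22.4 and 25 CPM (4.90 ± 0.20).

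Of 14 tested genes of the osmotic response 1 was higher (7.1%, beside 5.35% of all genes) and 1 lower, with a median log2 fold change of -0.02. The higher member was Sord, sorbitol dehydrogenase, which oxidises sorbitol to fructose. Sord (ENSMUSG00000027227.7, chromosome 2, 122234749 to 122265340, plus strand) was at 907 and 767 CPM in the tbGFP-positive and 201 and 203 CPM in the tbGFP-negative libraries, a log2 fold change of 2.05 ± 0.17 (adjusted p = 2.99e-07), with a wide gap between the fractions. At 0 h, without sorbitol, it was at 823 and 742 against 137 and 132 CPM (2.54 ± 0.17), and the change of the gap did not pass (-0.49 ± 0.23, adjusted p = 0.922). The lower member was Oxsr1, a kinase that regulates cation-chloride cotransport, at 149 and 142 against 235 and 226 CPM (-0.66 ± 0.15, adjusted p = 0.0156), a call lost without any 1 of the 4 libraries at 24 h (adjusted p of 0.0887 to 0.184). Akr1b3, the aldose reductase that makes sorbitol from glucose, was at 63 and 58.3 against 84.5 and 95 CPM and did not pass (adjusted p = 0.272). Slc5a3, the myo-inositol transporter, was at 284 and 292 against 312 and 311 CPM (adjusted p = 0.993), and the taurine transporter gene Slc6a6 at 463 and 377 against 515 and 537 CPM (adjusted p = 0.549). At 0 h Slc5a3 had means of 39.7 against 26.9 CPM, below the means of 288 and 312 CPM at 24 h in either fraction.

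Stress programs gave 1 or 2 higher genes per list or none, against 5.35% of all tested genes; with so few calls the shares are given as a description. Of 17 ATF4 targets, 2 were higher (11.8%) and none lower, with a median of 0.41: Ddit4, an inhibitor of mTOR signalling, was at 955 and 618 CPM in the tbGFP-positive and 242 and 246 CPM in the tbGFP-negative libraries (1.69 ± 0.29, adjusted p = 0.00109), and Phgdh, the first enzyme of serine synthesis, at 181 and 165 against 66.9 and 65.1 CPM (1.39 ± 0.25, adjusted p = 0.00155). Of 13 heat shock genes, 2 were higher (15.4%), the near-identical Hsp70 genes Hspa1a and Hspa1b, with a list median of -0.07. Hspa1b was at 101 and 88.5 CPM in the tbGFP-positive and 34.2 and 36.9 CPM in the tbGFP-negative libraries (1.41 ± 0.23, adjusted p = 0.000822), and Hspa1a at 31.9 and 28.4 against 10.1 and 6.6 CPM (1.84 ± 0.37). The gap of Hspa1b was 4.24 ± 0.28 at 0 h, when it was at 141 and 104 against 7.84 and 5.68 CPM, and was smaller at 24 h (-2.82 ± 0.35, adjusted p = 0.000371).

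Of 15 NRF2 antioxidant targets 1 was higher (6.7%), Nfe2l2, which encodes NRF2 itself, at 206 and 221 against 139 and 128 CPM (0.68 ± 0.17, adjusted p = 0.0228). Hmox1, heme oxygenase, was at 91.4 and 92.8 against 57.5 and 58.5 CPM, without overlap but above the threshold (adjusted p = 0.0665), and it passed in 8 of 20 alternatives. None of 20 p53 targets passed (median 0.03), and Cdkn1a, the p21 cell cycle inhibitor, was at 1.77 and 1.77 against 5.38 and 5.96 CPM. Of 10 genes of the unfolded protein response 1 was higher (10%), the co-chaperone gene Dnajb9 at 113 and 136 against 42.7 and 43.4 CPM. Of 13 immediate-early genes 1 was higher (7.7%), Jun, at 68.3 and 61.4 against 25.9 and 26.5 CPM (1.31 ± 0.30, adjusted p = 0.0127). The calls of Nfe2l2 and Jun were lost without any 1 of the 4 libraries at 24 h. None of 24 genes of the ATR and ATM checkpoint passed, with a median of -0.12.

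The 22 genes lower in tbGFP-positive cells included genes known for stem cell maintenance. Lifr, the receptor of LIF, was at 161 and 159.5 CPM in the tbGFP-positive and 330 and 313 CPM in the tbGFP-negative libraries, a log2 fold change of -1.01 ± 0.18 (adjusted p = 0.00212). At 0 h it was at 150.1 and 181 against 301 and 322 CPM (-0.91 ± 0.19), without overlap as well. Its co-receptor gene Il6st was at 32.5 and 37 against 74.8 and 77.9 CPM and did not pass (adjusted p = 0.0669), and of 13 tested LIF and STAT3 genes Lifr was the only one to pass. Tfcp2l1, a naive pluripotency factor, was at 1103 and 1037 CPM in the tbGFP-positive and 1695 and 1745 CPM in the tbGFP-negative libraries (-0.69 ± 0.14, adjusted p = 0.00432). At 0 h it was at 1048 and 1006 against 994 and 1046 CPM with no gap called (0.01), and the change of the gap had an adjusted p of 0.185. The call of Tfcp2l1 was lost without replicate 2 of either fraction at 24 h. It was 1 of 20 tested naive pluripotency genes to pass, with a list median of -0.16.

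Zfp57, a zinc finger protein that protects imprinted methylation, was at 84.3 and 117 against 199 and 230.4 CPM (-1.10 ± 0.23, adjusted p = 0.00709). It was the 1 member of the DNA methylation list to pass, of 16 tested with a median of -0.54, and of 16 imprinted genes none passed. Spred1, an inhibitor of ERK signalling and the 1 of 12 tested FGF and ERK genes to pass, was at 101 and 136 against 221 and 195 CPM (-0.81 ± 0.20), and Fzd5, a Wnt receptor, at 104 and 125 against 197 and 213 CPM (-0.84 ± 0.16). Nsun2, an RNA cytosine methyltransferase, was at 10.8 and 10.2 against 26 and 24.6 CPM (-1.27 ± 0.33), Inhbb, an activin subunit, at 18.8 and 24.1 against 46.9 and 50.0 CPM (-1.17 ± 0.32), and Gdf3, a TGF-beta family ligand, at 104 and 110.1 against 181 and 176 CPM (-0.74 ± 0.16). Smarcad1, a chromatin remodeller, had a log2 fold change of -0.87 ± 0.23, Arid5b, a DNA-binding factor, -0.88 ± 0.19, Mtss1, an actin-linked membrane scaffold, -0.98 ± 0.25, and Zfp704 -0.76 ± 0.19. The others were Gm43805, 2310043M15Rik, AV205837, Slc35g1, B4galt6, U2surp, Oxsr1, the RNA-binding ubiquitin ligase gene Trim71, the mismatch repair gene Msh6 and the long noncoding RNA Neat1, with log2 fold changes of -0.46 to -1.69. These calls rest on few libraries: without replicate 1 of the tbGFP-negative cells at 24 h 5 of the 22 remained, without replicate 1 or 2 of the tbGFP-positive cells 2 and 8, and without replicate 2 of the tbGFP-negative cells 1 of the 22 remained. Of the 12 named lower genes, Lifr was the 1 that passed in all 20 alternatives.

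The counts of the other stem cell programs are read beside the 5.35% of all tested genes that were higher. None of 33 tested chromatin repressors and regulators of the 2-cell state passed, with a median of -0.04 and a range of -2.05 to 1.19. Dppa2, an activator of Dux, was at 4.44 and 10.4 against 4.55 and 4.06 CPM (0.79 ± 0.65). Dppa4 was at 11.2 and 11.8 against 10.8 and 9.01 CPM (0.22 ± 0.52). The demethylase gene Kdm1a was at 3.37 and 2.8 against 6.52 and 11.9 CPM (-1.57 ± 0.90). The chromatin assembly factor gene Chaf1a was at 6.75 and 3.98 against 9.93 and 7.61 CPM (-0.71 ± 1.04). These 4 genes were scarce and their errors wide, so not passing does not show equal levels. None of 19 S phase genes, 14 G1 cyclins and CDK inhibitors, 18 genes of glycolysis and hypoxia, 15 of ribosome biogenesis, 62 replication histones or 11 mitochondrial mRNAs passed. Bub1b, a mitotic checkpoint kinase gene, was the 1 of 17 G2 and M phase genes to pass (5.9%), at 1286 and 1138 against 897 and 832 CPM (0.49 ± 0.13). Of 15 formative and primed genes 1 passed (6.7%), Pou3f1, at 62.8 and 38.9 against 24 and 25.5 CPM (1.04 ± 0.29, adjusted p = 0.0473). The calls of Bub1b and Pou3f1 were lost without either tbGFP-negative library at 24 h. Of 16 genes of cholesterol synthesis 2 were higher (12.5%), Insig1 (0.72 ± 0.19) and Dhcr7, the last enzyme of the pathway, at 20.8 and 16.6 against 1.03 and 1.4 CPM (3.93 ± 0.71). Of 75 cytosolic ribosomal protein genes 2 were higher (2.7%), Rplp0 (0.84 ± 0.14) and the retrogene Rpl10l (1.09 ± 0.21), with a list median of -0.16. With library totals alone the calls of Bub1b, Pou3f1, Insig1, Rplp0, Rpl10l, Nfe2l2, Jun and Tubb3 were lost. None of 9 maternal oocyte genes passed; Ooep, a maternal gene of the egg, was at 139.5 and 183 against 241 and 227 CPM. None of 6 snoRNA host genes or 14 splicing regulators passed, with medians of -0.38 and -0.40.

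Each list of markers of other cell types gave 1 higher gene or none, and no lower gene. Among 4 tested germline genes Tex19.1, which is also read in stem cells, was higher at 1286 and 915 against 412 and 388 CPM (1.46 ± 0.23), while Ddx4, Mael and Sycp3 were below the count minimum; the list summed to 1290 and 920 CPM in tbGFP-positive and 416 and 397 CPM in tbGFP-negative libraries. Among 6 tested genes of mesoderm and ectoderm Tubb3, a neuronal tubulin gene, was higher at 95.7 and 83.6 against 35.7 and 45.3 CPM (1.15 ± 0.28, adjusted p = 0.0218), and the list summed to 132 and 112 CPM in tbGFP-positive and 60.9 and 67.4 CPM in tbGFP-negative libraries. None of 7 primitive endoderm, 7 trophectoderm or 4 fibroblast genes passed, and Gata4, Sox17, Foxa2, Elf5, Hand1, Lum and Dcn were below the count minimum. The fibroblast list summed to 29.3 and 23 CPM in tbGFP-positive and 10.8 and 9.26 CPM in tbGFP-negative libraries, the primitive endoderm list to 334 and 292 against 369 and 354 CPM, and the trophectoderm list to 121 and 122 against 94.8 and 103 CPM. The call of Tubb3 was lost without any 1 of the 4 libraries at 24 h. The part of such cells in the results was not tested.

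**Figure D5:**
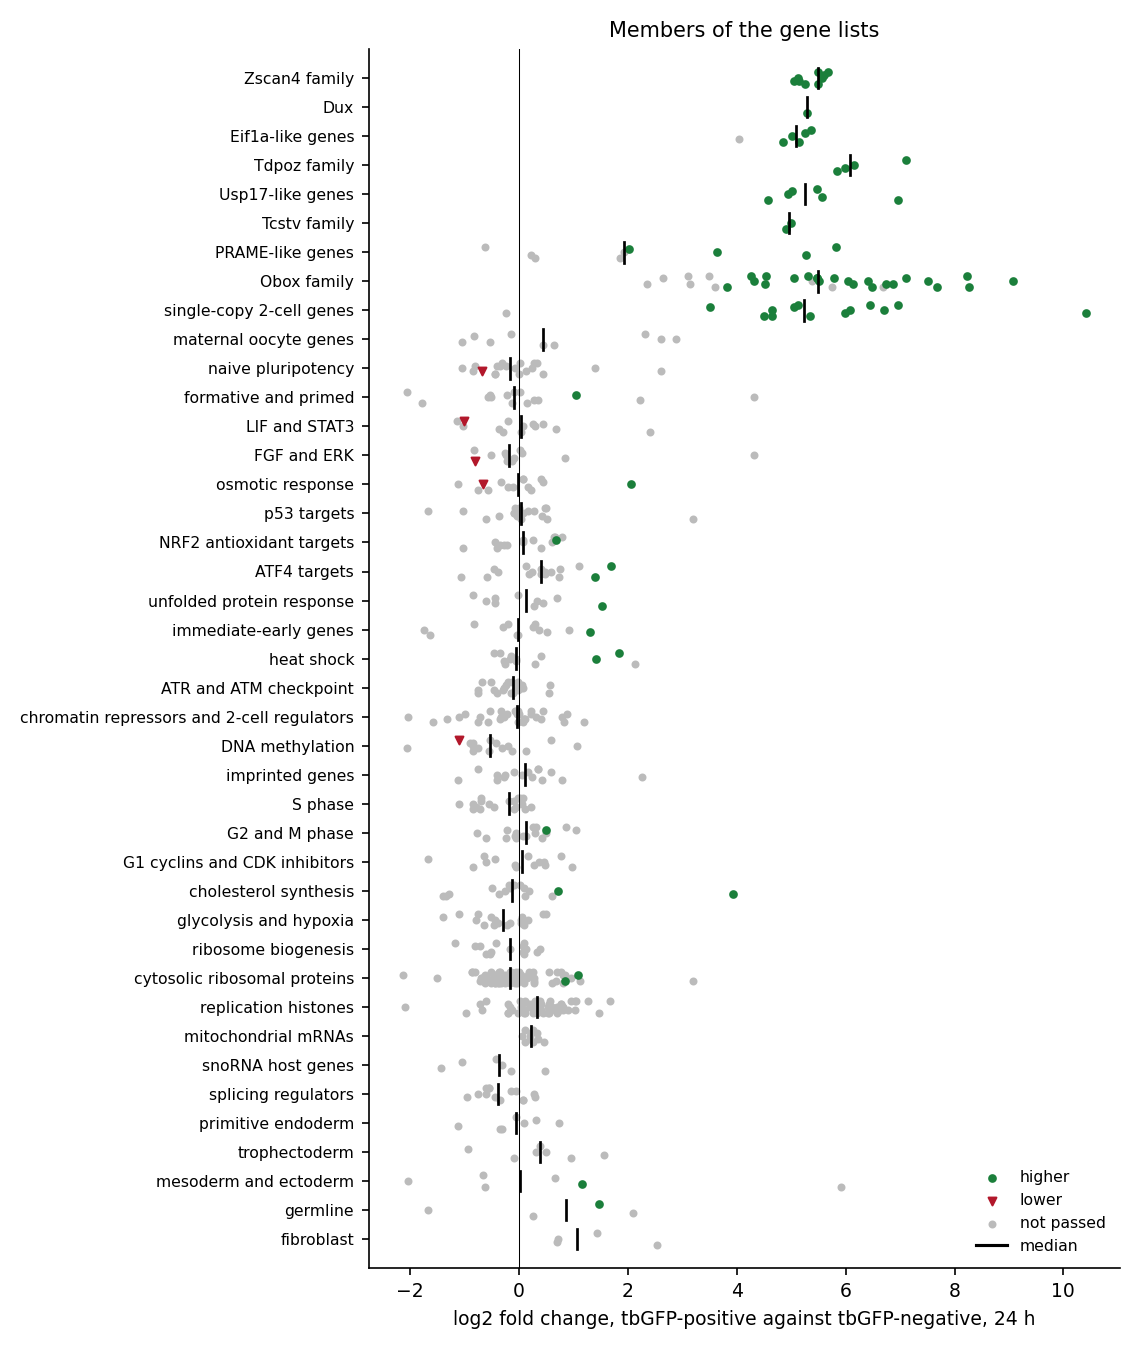
Log2 fold change at 24 h, tbGFP-positive minus tbGFP-negative (x axis), for each tested member of the gene lists (rows). Green points are higher, red triangles lower and grey points did not pass. Black bars are list medians, which lie at 5.48 for the Zscan4 family and at 1.92 for PRAME-like genes. They lie at 5.49 for the Obox family, at 5.24 for single-copy 2-cell genes and between -0.54 and 1.07 for the lists below these.

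Some of the higher genes were copies in clusters. Protein coding genes made up 519 of the 1037 (50.05%), against 63.9% of all tested genes, and 156 were processed and 97 unprocessed pseudogenes. Of 321 tested unprocessed pseudogenes 30.2% were higher, of 1055 lincRNAs 108 (10.2%) and of 174 miRNA genes 27 (15.5%), beside 5.35% of all tested genes. Windows of 1 Mb with at least 5 higher genes numbered 28 of 2265 and held 241 higher genes (23.2%), so most higher genes lay outside them; the windows were picked by their number of higher genes. The most higher genes lay on chromosome 12, 87 to 88 Mb, with 21 of 43 tested genes higher, around the Eif1a-like genes, and next on chromosome 7, 15 to 16 Mb, with 19 of 30, which holds the Obox pseudogenes. On chromosome 3, 93 to 94 Mb, around the Tdpoz genes, 14 of 25 were higher, and on chromosome 7, 11 to 12 Mb, around the Zscan4 genes, 13 of 23. On unplaced scaffolds 23 of 33 tested genes were higher (69.7%). A gene can pass the count minimum through the tbGFP-positive libraries alone. Nothing is therefore read from the shares of these gene classes, windows and scaffolds. Near-identical copies share reads, so neighbouring calls are not independent of each other.

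Rn7sk, the small nuclear RNA that holds the elongation factor P-TEFb inactive, was higher too; it was named after its values were seen. It was at 75620 and 52510 against 37220 and 37900 CPM (0.77 ± 0.18, adjusted p = 0.0156), with replicate 1 of the tbGFP-positive cells the highest. At 0 h its gap was 0.66 ± 0.18 (adjusted p = 0.0368). Rn7sk was not among the genes followed through the alternatives, so whether its call depends on the scaling was not tested. Such abundant RNAs weigh on library totals, on which CPM depend.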

How the data were processed

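The members and gene lists were chosen with earlier results of these data known. Sorted cells gave total RNA for stranded libraries, per the labels' protocols. The authors deposited whole-number read counts per Ensembl transcript for each library, not normalized. The submitters' processing notes name FastQC, HISAT2, featureCounts, DESeq2 and mm10 without versions; how strand and reads shared by copies were treated is not given in the sources used here. Of 142446 transcripts, 141536 were matched by identifier to GENCODE M21 and summed to 55266 genes; the other 910 held 0.0606% to 0.0903% of counts. The 19384 genes that reached 10 counts in 2 or more libraries were tested.

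Libraries were grouped by title into 6 groups of 2. edgeR 4.0.16 in R 4.3.3 fitted group means over all 12 libraries with TMM factors and the robust quasi-likelihood test, so all groups share 1 estimate of spread (common dispersion 0.208). Contrasts were the gap between the sorted fractions (positive minus negative) at 24 h, that at 0 h, and the difference of both gaps. Standard errors are the log2 fold change divided by the square root of F. Bounds use 3 counts over a group, and counting intervals (95%) cover counting error only. Depth was 2306870 to 7900178 counts, where 3 counts are 0.38 to 0.468 CPM at 24 h before the TMM factors.

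Genes were named by rule: the 10 protein coding genes with the largest fitted change in each direction among those with at least 5 CPM in 1 group and no overlap between groups, up to 4 members called per list, 5 genes per direction of the change of the gap, the 2-cell families and a panel of stem cell and stress genes. Il6st, Ooep, Obox6, Pramef12, Gm21761, AC125149.5 and the lower genes outside this rule were named after their values were seen. Alternatives were other scalings, DESeq2 1.42.0, other filters, fewer libraries and a replicate block.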

Additional observations from a re-analysis of the deposited data

Results flagged for a closer look

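The gap between the fractions differed between 0 h and 24 h by the test of the difference itself (edgeR's quasi-likelihood interaction test, Benjamini-Hochberg adjusted) for 184 genes with a smaller and 4 with a larger gap at 24 h, and each gene given here was picked out by that test. Values are changes of the log2 gap from 0 h to 24 h. In the Zscan4 family the change was -5.5 for Zscan4a, -5.04 for Zscan4c, -5.81 for Zscan4d, -5.52 for Zscan4f, -4.84 for Zscan4-ps1, -5.02 for Zscan4-ps2 and -5.48 for Zscan4-ps3. Among Eif1a-like genes it was -4.65 for Gm2016, -4.54 for Gm2022, -5.1 for Gm5662 and -5.32 for Gm8300. Among Usp17-like genes it was -5.82 for Usp17la, -7.33 for Usp17lb, -8.68 for Usp17lc, -5.02 for Usp17ld and -5.09 for Usp17le. It was -9.42 for Tdpoz3, -4.4 for Tdpoz4, -7.24 for Tcstv3 and -4.31 for Pramef25. The annotated Obox pseudogenes Obox4-ps27 and Obox4-ps33 changed by -4.45 and -4.54, and Obox4-ps35, which is annotated as a lincRNA, by -7.01.

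Among the other genes the change was -4.21 for Arg2, -8.94 for AA623943, -8.32 for Asb12, -7.41 for Dcc, -9.28 for Rdh1, -8.49 for Spz1, -5.53 for Tmem92, -1.72 for Ddit4l and -1.34 for Zfp560. Hspa1a and Hspa1b, which are near-identical, both changed by -2.82. Map1b had a gap larger by 1.02 and Soat2 one larger by 6.81. AA623943, Asb12, Dcc, Obox4-ps35, Rdh1, Spz1, Tcstv3, Tdpoz3, Usp17lb and Usp17lc had no count in tbGFP-negative cells at 0 h, so their changes depend on the prior count. Soat2 had 1 count in tbGFP-positive cells at 0 h.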

How the results depend on the processing

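Calls at 24 h, 1037 higher and 22 lower, varied with the libraries and the scaling. Without both tbGFP-positive libraries at 6 h there were 1746 (1608 higher, 138 lower), and with only the 4 libraries compared 2359 (1938 higher, 421 lower). Lower calls numbered 93 with upper-quartile factors, 424 with library totals alone and 75 with DESeq2. Leaving out 1 library in turn gave 704 to 1711 calls, 703 to 1518 higher and 1 to 193 lower; with the arm left at 1 library, that library is taken to vary like the others. The change of the gap gave 312 calls (292 smaller) without a filter on low counts, 336 (297 smaller) without both tbGFP-positive libraries at 6 h and 303 (279 smaller) with only the libraries compared. Leaving out 1 library gave 77 to 338, of which 77 to 311 smaller and 0 to 28 larger. A larger gap was called for 8 genes with upper-quartile factors, 17 with DESeq2, 20 without the filter, 39 without both libraries at 6 h, 2 with a replicate block and 24 with only the libraries compared. At 0 h, calls rose to 2472 (1997 higher) without both libraries at 6 h, and leaving out 1 library gave 810 to 2491 (797 to 2002 higher). The cause was not tested.

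Of 87 named genes called higher, 70 passed in all 20 alternatives, as did 1 of 12 called lower, and no called gene turned direction. Genes that did not pass turned sign: Dppa4 (-0.21), Nanog (-0.4) and Pou5f1 (-0.21) with library totals alone, and Nanog (-0.17) with upper-quartile factors. Leaving out 1 library gave -0.25 to 1.11 for Dnmt1, -0.17 to 0.19 for Nanog and -0.17 to 0.56 for Pou5f1. The replicate numbers were not found to pair the samples: same-numbered fractions at 24 h had a correlation of deviations of 0.013, and with the replicate block 1014 genes were called, 995 higher and 19 lower. Depth limits the scarce genes, as 122 higher genes had no count in tbGFP-negative cells.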
